A study of Mus musculus with 2 samples.

Results

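The 10 genes described here encode inflammatory chemokines (Cxcl1, Cxcl2, Ccl2 and Ccl7), C/EBP transcription factors (Cebpb and Cebpd) and genes switched on rapidly by stress and growth factor signals (Csrnp1, Klf10, Errfi1 and Trib1). They were found by symbol in both deposited matrices, where they are 10 of 31253 features. Several of them had been chosen by their level, which was higher in deletion than in control mesenchyme. Every ratio within mesenchyme, its subtypes included, is therefore a description that supports nothing. That choice names no ratio in vessels, leukocytes or epithelium. The members were chosen with earlier results of these data known, however, and these ratios come from the same pair of libraries.

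The cells came from tooth germs of the mandibular first molar of newborn C57black/B6 mice and were captured on the BD Rhapsody system. Control mice were Edarfl/fl, with a floxed gene for the ectodysplasin receptor and no Cre. Deletion mice were K14cre;Edarfl/fl, where Cre is driven in keratin 14-expressing epithelium, so mesenchyme, vessels and leukocytes are not the cells the driver targets. Each genotype is 1 library, with no replicate, and the number of germs in each is not given in the sources used here. No test across animals exists, no p-value is given, and all intervals are 95% intervals for counting error alone.

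Chemokines are small secreted proteins that direct leukocytes. Cxcl1 and Cxcl2 act on the neutrophil receptor Cxcr2, and Ccl2 and Ccl7 act on the monocyte receptor Ccr2. NF-kB and C/EBP factors bind the regulatory DNA of many such genes after injury or cytokine signals. Errfi1 restrains the EGF receptor, and Trib1 is a pseudokinase that marks C/EBP alpha for degradation in myeloid cells. Csrnp1 and Klf10 are nuclear factors induced early after stimulation, Csrnp1 by axin and Klf10 by TGF-beta. The mesenchyme of a newborn molar forms dentin from its odontoblasts and papilla, and the surrounding dental follicle takes part in forming root cementum, ligament and alveolar bone.

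Control cells came as 13990 barcodes with 73375441 unique molecular identifiers (UMIs) and deletion cells as 16029 barcodes with 62158879. Edar stood at 34.7 CPM in control and 21.2 CPM in deletion epithelium-like cells, but these tags may lie outside the deleted part and then check nothing. After filtering, 13255 and 15244 cells remained, with medians of 4444 and 3329 UMIs, and 4 barcode sequences occurred in both. Clusters were named from markers, with the 10 genes kept out of the clustering. Mesenchyme-like cells numbered 7702 and 10004 (control and deletion), epithelium-like 2273 and 1885, endothelium-like 1227 and 982, mural-like 365 and 349, macrophage-like 565 and 527, neutrophil-like 137 and 135, osteoclast-like 42 and 106, and glia-like 38 and 108. The largest mesenchyme clusters differed, being clusters 0, 9 and 1 in control cells and 9, 6 and 18 in the deletion library. Levels are CPM, the UMI count scaled by the UMI total of the class, and a log2 ratio is log2 of (deletion CPM + 5) over (control CPM + 5). A gene was past the 2-fold rule if it reached 50 CPM in 1 library, differed at least 2-fold on that scale and had a count ratio whose interval excluded 1.

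In the mm10 build, with GENCODE M21 positions, Cxcl1 lies on the plus strand at chr5:90891241-90893115 and Cxcl2 at chr5:90903871-90905938, with 10755 bases and 1 annotated gene, Gm22816, between them. Ccl2 (chr11:82035571-82037453) and Ccl7 (chr11:82045712-82047525) are also on the plus strand, 8258 bases apart with no annotated gene between them. Cebpb is at chr2:167688915-167690418, Cebpd at chr16:15887286-15891031, Errfi1 at chr4:150853919-150868892 and Trib1 at chr15:59648350-59657099, all on the plus strand. Csrnp1 (chr9:119971163-119984658) and Klf10 (chr15:38291463-38300706) are on the minus strand. Whether counting used the strand is not given in the sources used here, so the counts of genes that overlap another are uncertain. Csrnp1 overlaps Cx3cr1 on its own strand, a macrophage gene that stood at 3.22 CPM in control and 6.40 CPM in deletion mesenchyme-like cells. Cebpb overlaps Tmem189 on the other strand (27.2 and 29.0 CPM there), and Cebpd overlaps Spidr (12.9 and 17.3 CPM).

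The promoters of Cxcl1, Cxcl2 and Errfi1 are shown because they carry the motifs that bear on how these genes are known to be switched on. They are the 250 bases before the transcript start from RefSeq (GRCm38.p6), written 5′ to 3′ on the gene's strand. The first is chr5:90890995-90891244, the next chr5:90903649-90903898 and the last, before the more downstream of the 2 Errfi1 starts, chr4:150854820-150855069. Capitals mark a match to the NF-kB motif, GGG and TTTCC with any 2 bases between them, on either strand in Cxcl1 and Cxcl2, and to the cyclic AMP response element TGACGTCA in Errfi1.
Cxcl1: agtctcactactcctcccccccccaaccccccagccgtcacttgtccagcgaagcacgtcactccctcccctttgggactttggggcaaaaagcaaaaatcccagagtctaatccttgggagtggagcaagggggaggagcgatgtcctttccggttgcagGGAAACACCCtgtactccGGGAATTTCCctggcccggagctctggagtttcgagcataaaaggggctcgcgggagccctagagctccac
Cxcl2: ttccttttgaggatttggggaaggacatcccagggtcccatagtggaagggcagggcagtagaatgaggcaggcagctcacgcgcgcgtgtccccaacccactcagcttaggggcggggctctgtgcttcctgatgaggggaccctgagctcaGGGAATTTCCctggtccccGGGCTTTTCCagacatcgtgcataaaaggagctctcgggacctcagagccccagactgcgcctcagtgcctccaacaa
Errfi1: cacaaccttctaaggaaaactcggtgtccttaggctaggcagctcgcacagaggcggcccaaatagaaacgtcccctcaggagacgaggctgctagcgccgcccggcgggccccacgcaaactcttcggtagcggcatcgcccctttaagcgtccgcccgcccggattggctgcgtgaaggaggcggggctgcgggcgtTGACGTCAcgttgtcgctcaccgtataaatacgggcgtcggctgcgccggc
The Cxcl1 window held 2 NF-kB matches, on the minus strand 89 bases and on the plus strand 71 bases before the start. The Cxcl2 window held 2 on the plus strand, 97 and 78 bases before the start. Over 32851 mouse promoter windows of the same length, 1.41% held this motif. The Errfi1 match lay 51 bases before the start, and 1.55% of windows held that motif. The AP-1 motif TGANTCA occurred 102 and 14 bases before the most downstream of 4 Csrnp1 starts, and 6.75% of windows held it. The Cebpb window held none of these 3 motifs and no C/EBP motif TTGCNNAA, which 9.56% of windows held. The other windows of Errfi1 and Csrnp1 held none of these motifs. Ccl2, Ccl7, Cebpd, Trib1 and Klf10 had no promoter window in the source used and were not searched. These matches are letters in a window and not shown sites.

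Across cell classes the 4 chemokine genes had different homes. Macrophage-like cells held the highest levels of Ccl2 and Ccl7, and macrophage-like and neutrophil-like cells the highest of Cxcl2. Cxcl1 was spread over macrophages, endothelium, mural cells and glia. Epithelium-like cells, where the driver acts, held little of any of the 4.

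Cxcl1, a neutrophil attractant, stood in the control at 417 CPM in macrophage-like (interval 399 to 435), 408 CPM in endothelium-like (391 to 427) and 385 CPM in mural-like cells (352 to 420). These 3 intervals overlap, so their order is not resolved. Glia-like cells held 233 CPM, from 27 UMIs. Mesenchyme-like cells held 23.4 CPM (22.0 to 24.9), and epithelium-like cells 4.62 CPM (3.41 to 6.12). In the deletion library the levels were 696 CPM in macrophage-like, 554 CPM in mural-like, 488 CPM in endothelium-like, 70.9 CPM in mesenchyme-like and 9.48 CPM in epithelium-like cells. The deletion library was the higher in each of these 5 classes, and all 5 count ratio intervals lay above 1.

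Cxcl2, a close relative of Cxcl1, was the gene of myeloid cells. Macrophage-like cells held 4332 CPM in control cells and 5134 CPM in the deletion library, and neutrophil-like cells 5056 and 4433 CPM. Endothelium-like cells held 31.2 CPM (26.4 to 36.6) and 70.5 CPM (62.1 to 79.7), and mural-like cells 33.8 and 36.0 CPM. Mesenchyme-like cells held 3.76 and 10.0 CPM. Both myeloid classes thus held far more of it than any other named class, in both libraries.

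Ccl2, the main attractant of monocytes, stood at 2216 and 2382 CPM in macrophage-like and at 271 and 262 CPM in mural-like cells. Endothelium-like cells held 33.7 and 43.6 CPM, mesenchyme-like cells 2.60 and 6.58 CPM, and epithelium-like cells 1.64 and 2.77 CPM. Among the named classes mural-like cells thus ranked next after the macrophages in both libraries, while unnamed cluster 26 held 301 and 254 CPM. Ccl7, which shares the Ccr2 receptor, stood at 1302 and 1516 CPM in macrophage-like and at 17.3 and 14.4 CPM in mural-like cells. It lay under 5 CPM in endothelium-like, mesenchyme-like and epithelium-like cells of both libraries.

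Macrophage RNA in other cells bears on the weakest of these levels. The 3 complement C1q genes, which define macrophages, summed to 6157 and 5815 CPM in macrophage-like cells and to 4.85 and 6.15 CPM in mesenchyme-like cells, which is 0.0787% and 0.106% of the macrophage level. The same share of the macrophage level would carry 3.41 and 5.43 CPM of Cxcl2, 1.74 and 2.52 CPM of Ccl2 and 1.02 and 1.60 CPM of Ccl7 into mesenchyme-like cells. Measured Cxcl2 was 1.10 and 1.85 times its carried level, Ccl2 1.49 and 2.61 times and Ccl7 1.13 and 1.37 times. These 3 levels in mesenchyme-like cells are given with that reservation, and what part carried RNA had in them was not tested. The C1q share covers macrophages only, while neutrophil-like cells also held much Cxcl2. Cxcl1 was 71.4 and 96.5 times its carried level, and for the other 6 genes the factor was at least 98.7 in both libraries. In mural-like cells Ccl2 was 31.3 and 125 times, and in endothelium-like cells Cxcl2 8.25 and 17.98 times, the carried level.

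The transcription factor genes were broader. Cebpb, a factor of myeloid cells and of the acute response, stood at 738 and 1050.4 CPM in macrophage-like and at 1000.4 and 1017 CPM in neutrophil-like cells. Osteoclast-like cells held 438 and 344 CPM, mural-like cells 184 and 352 CPM, endothelium-like cells 115 and 193 CPM, mesenchyme-like cells 57.3 and 121 CPM, and epithelium-like cells 41.5 and 51.4 CPM. Cebpd, its partner in adipocyte and inflammatory programs, followed another order. It was high in neutrophil-like (435 and 331 CPM), glia-like (362 and 488 CPM), endothelium-like (176 and 209 CPM) and mural-like cells (155 and 240 CPM). It was low in macrophage-like (60.4 and 51.5 CPM) and epithelium-like cells (11.5 and 12.3 CPM). Mesenchyme-like cells held 60.6 and 132 CPM.

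Csrnp1 stood at 603 and 462 CPM in glia-like, 496 and 612 CPM in macrophage-like, 493 and 454 CPM in neutrophil-like and 356 and 474 CPM in endothelium-like cells. Mesenchyme-like cells held 91.6 and 236 CPM, and epithelium-like cells 15.3 and 28.7 CPM. Klf10, a Krüppel-like repressor, was highest in endothelium-like (202 and 254 CPM) and neutrophil-like cells (180 and 185 CPM), whose control intervals overlap. It stood at 37.5 and 73.4 CPM in mesenchyme-like and at 44.5 and 54.1 CPM in epithelium-like cells.

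Of the feedback genes, Errfi1 was in both libraries highest, among whole classes, in mural-like cells, at 206 CPM in control cells and 199 CPM in the deletion library. It stood at 66.0 and 88.1 CPM in macrophage-like, 51.8 and 81.6 CPM in endothelium-like, 40.9 and 104 CPM in mesenchyme-like and 35.8 and 47.1 CPM in epithelium-like cells. Trib1 was highest in neutrophil-like cells, at 882 and 757 CPM. Macrophage-like cells held 283 and 332 CPM, endothelium-like cells 242 and 336 CPM, mesenchyme-like cells 35.5 and 77.4 CPM and epithelium-like cells 12.1 and 14.3 CPM.

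**Figure D1:**
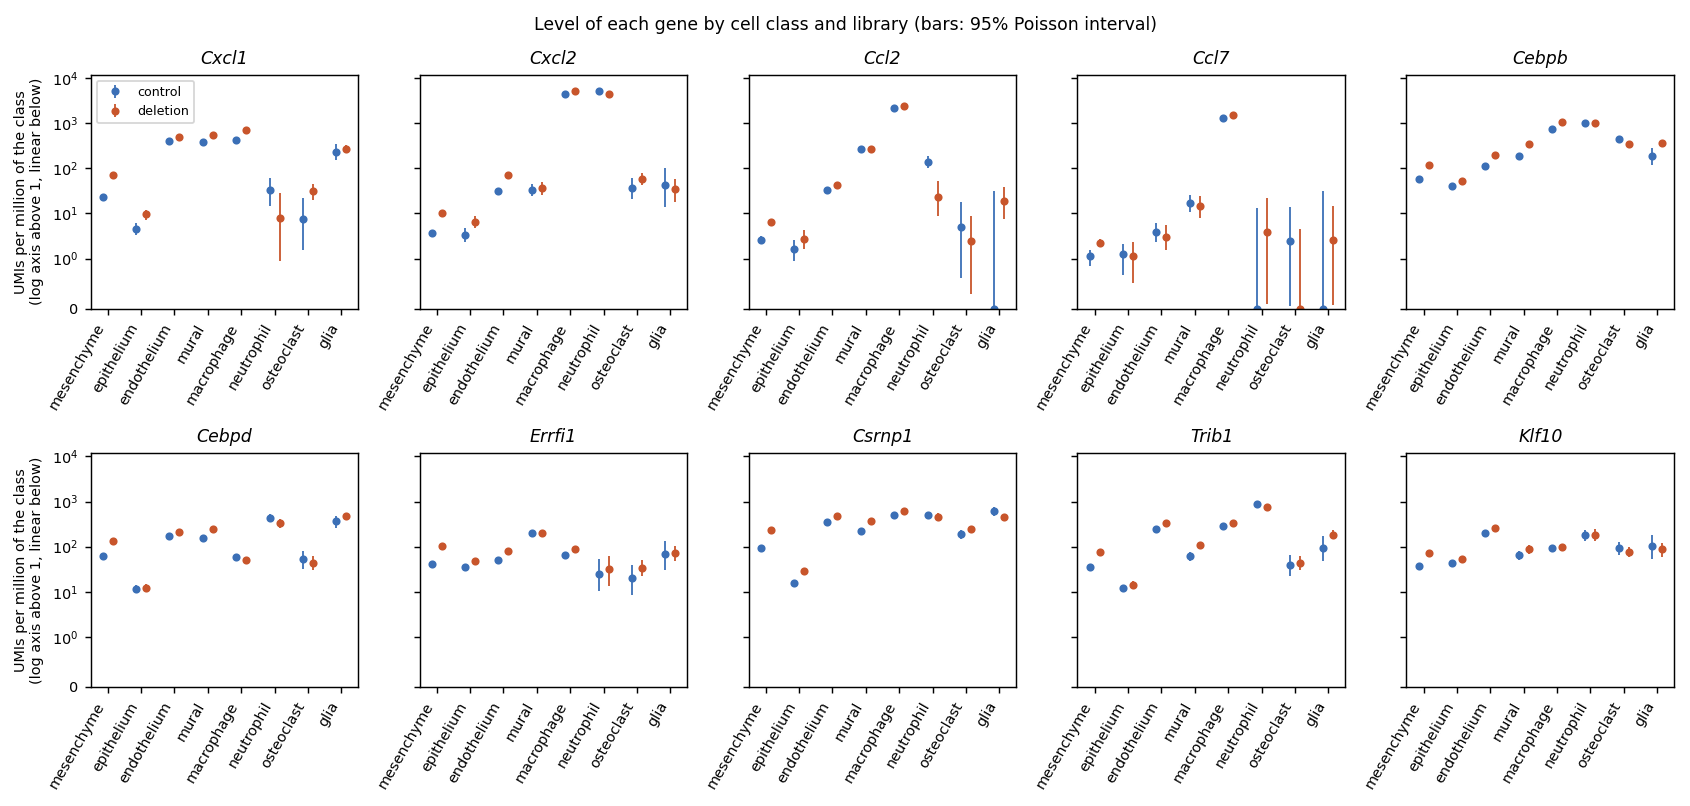
Level of each of the 10 genes (CPM of the class, logarithmic above 1 and linear below) in 8 cell classes, for the control (blue) and the deletion library (orange), with 95% Poisson intervals and 1 library per point. Cxcl2 lies highest in macrophage-like and neutrophil-like cells, and the blue and orange points stand apart most evenly over the genes in mesenchyme-like cells.

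In mesenchyme-like cells all 10 genes stood higher in the deletion library, a direction by which several of them had been chosen. Of the 10, 7 reached the minimum level and 6 passed the 2-fold rule (Cxcl1, Cebpb, Cebpd, Errfi1, Csrnp1 and Trib1), where 0.375% of 3470 genes at that level passed it in that direction and 0.375% in the other. The log2 ratios were 1.42 for Cxcl1 (count ratio 2.82 to 3.26), 1.32 for Csrnp1, 1.25 for Errfi1, 1.06 for Cebpd, 1.02 for Trib1 and 1.01 for Cebpb (2.00 to 2.21). Cebpb and Trib1 were thus just inside the rule, and Klf10, at 0.88 (1.84 to 2.08), was just outside it. The median over the 10 genes was 1.02, against 0.087 over the 10611 genes measured, which are those of 5 CPM or more in 1 library at least. These counts depended on which mesenchyme was summed. With odontoblast-like cells left out, or with unnamed clusters 10 and 21 added, 3 of the 10 passed the rule (Cxcl1, Errfi1 and Csrnp1), where 0.256% and 0.26% of genes were higher by it and 0.0853% and 0.231% lower. When all sub-clusters counted equally, 0 of the 10 and 0 of all genes did.

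Other cells' markers were counted in this class as well, at any level. Of all measured genes 66.0% stood higher in the deletion library here. The 9 macrophage markers summed to 54.9 CPM in control and 73.0 CPM in deletion mesenchyme-like cells, with 6 of 9 higher and none at 0. The 10 neutrophil markers summed to 5.86 and 11.4 CPM, with 8 of 10 higher, and the 8 mast cell markers to 25.9 and 40.2 CPM, with 5 of 8 higher and Ms4a2 at 0. The 10 epithelium markers summed to 24.6 and 38.3 CPM (9 of 10 higher), the 9 endothelium markers to 39.4 and 48.5 CPM (8 of 9) and the 8 osteoclast markers to 129 and 155 CPM (7 of 8). The 7 erythroid markers summed to 140.7 and 119.6 CPM (5 of 7 higher), and the 9 monocyte or dendritic markers to 825 and 659.8 CPM (3 of 9). The measured level of each of the 6 genes past the rule was at least 71.4 times what that share of macrophage RNA carries, as given above. What part RNA of the other cell types had was not tested.

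Mesenchyme was not uniform. Among the named subtypes, dental follicle-like cells (1840 control and 3349 deletion cells) carried the pattern most fully and fibroblast-like cells (417 and 546) held the most Cxcl1. Odontoblast-like cells (997 and 371) held little of any member. Sub-clusters 1 to 5 had no subtype name. They held 1338, 889, 390, 657 and 868 control cells, and 1076, 802, 864, 1791 and 1073 deletion cells. Unnamed sub-cluster 2 held still less Csrnp1 (30.3 and 41.4 CPM) and Cebpb (26.7 and 37.3 CPM) than odontoblast-like cells. Dental follicle-like cells pooled sub-clusters 6 to 9, of which sub-cluster 8 held 511 control and 1412 deletion cells. Over the pooled cells the same 6 genes passed the 2-fold rule, where 0.318% of genes did in that direction. Csrnp1 stood there at 229 CPM in the control (218 to 239) and 497 CPM in deletion cells (484 to 510). Errfi1 stood at 113 and 261 CPM, Cebpd at 139 and 284 CPM, and Cebpb at 99.8 and 246 CPM. The log2 ratios of these 4 genes lay between 1.01 and 1.26. Trib1 stood at 59.5 and 157 CPM, the largest ratio of the 10 in these cells at 1.33. Cxcl1 stood at 55.1 and 129 CPM, whereas Klf10, at 79.2 and 122 CPM, had a log2 ratio of 0.60.

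In fibroblast-like cells, led by Mfap5, Eln and Ly6a, 2 of the 10 passed the rule, Cxcl1 and Trib1, against 0.411% of genes in that direction and 0.528% in the other. Cxcl1 stood at 200 CPM in the control (179 to 222) and 426 CPM in deletion cells (396 to 458). Of its 733 deletion UMIs there, 87 were in 1 cell, and the ratio without that cell was not computed. Ccl2 stood at 5.19 CPM (9 UMIs) and 34.3 CPM (59 UMIs), which in the deletion library is 10.3 times the level carried with macrophage RNA. This was the mesenchymal subtype with the most Ccl2 in that library. Cebpb differed little there, at 153 and 162 CPM (count ratio 0.886 to 1.25), while Cebpd stood at 233 and 321 CPM.

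In odontoblast-like cells, led by Dspp, Mmp20 and Dmp1, 0 of the 10 passed the rule, against 0.116% of all genes, and 3 of the 10 reached the minimum level. Csrnp1 stood there at 47.2 and 87.2 CPM and Cebpb at 43.8 and 81.8 CPM. Errfi1 stood at 17.4 and 18.5 CPM, with a count ratio interval of 0.746 to 1.495 that includes 1. In dental papilla-like cells (306 and 132), 0 of the 10 passed the rule, against 0.762% of all genes. Csrnp1 stood there at 237 and 419 CPM (count ratio 1.42 to 2.19) and Cxcl1 at 73.8 and 135 CPM. Cebpb, at 121 and 119 CPM, and Errfi1, at 109 and 119 CPM, had intervals that include 1.

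Over the 12 mesenchyme sub-clusters, Csrnp1 had a count ratio interval above 1 in all 12 and Cxcl1 in 11, Klf10 in 10, Cebpb and Trib1 in 9, Cebpd in 8 and Errfi1 in 6. No member had an interval below 1 in any of them. Klf10 passed the 2-fold rule in unnamed sub-clusters 3 (log2 ratio 1.23) and 4 (1.32), as did Csrnp1 (1.00 and 1.23). Of the 12 sub-clusters, Csrnp1 passed it in 5, Errfi1 and Trib1 in 3 each, Cxcl1 and Klf10 in 2 each, Cebpb in 1 and Cebpd in 0. For sub-clusters, neither the share of all genes past the rule nor the share with an interval above 1 was counted. Sub-cluster 8, a dental follicle-like group led by Pappa2, Cyp26b1 and Tnn, held the highest level of Csrnp1, Errfi1 and Cebpb in both libraries among the 12. Csrnp1 stood there at 262 and 560 CPM, Errfi1 at 163 and 333 CPM and Cebpb at 190 and 380 CPM. The sub-cluster had 511 control and 1412 deletion cells, so it also made up a larger part of the deletion mesenchyme.

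**Figure D2:**
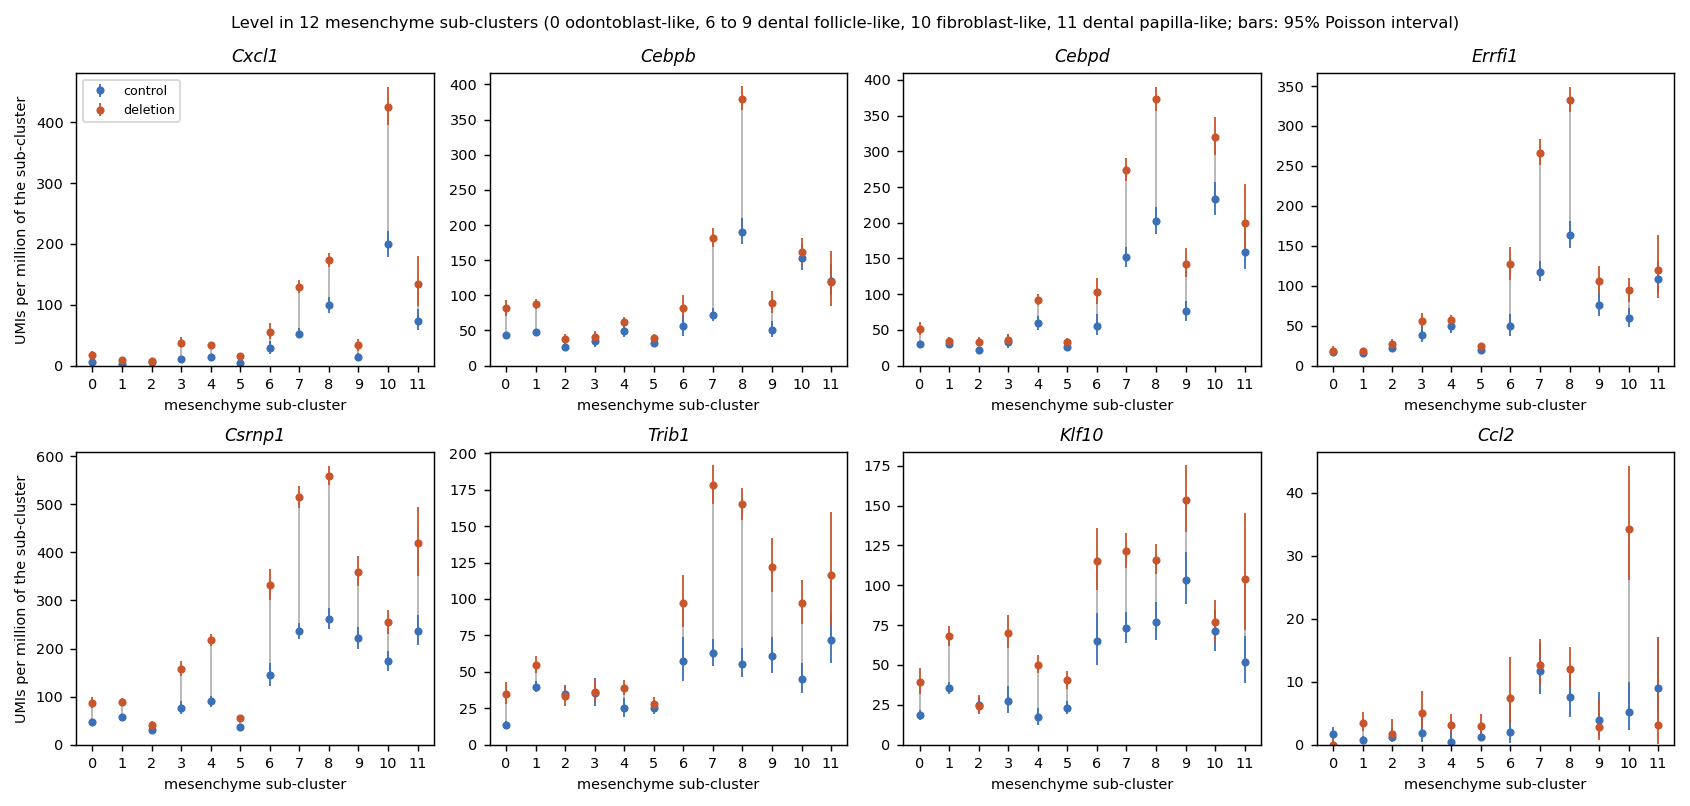
Level of 8 of the genes (CPM of the sub-cluster, linear axes from 0) in the 12 mesenchyme sub-clusters, control blue and deletion orange, joined by a grey line, with 95% Poisson intervals. The orange point of Csrnp1 lies above the blue one in all 12, sub-cluster 8 is the highest for Csrnp1 and Errfi1, and sub-cluster 10 is the highest for Cxcl1.

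The number of members found in a single cell follows in part from how they were chosen and is given as a description. Because deletion cells were shallower, each cell was thinned to 1900 UMIs and cells below that were left out. Of thinned mesenchyme-like cells (7511 control and 9301 deletion), 60.9% of control and 43.7% of deletion cells held none of the 10 genes, and 1.48% and 7.20% held at least 4. In dental follicle-like cells 3.72% and 18.2% held at least 4, and in dental papilla-like cells 5.98% and 12.6% did. A Csrnp1 UMI was found in 14.1% and 28.6% of thinned mesenchyme-like cells, and a Cxcl1 UMI in 2.98% and 7.59%. Unthinned, the Csrnp1 shares were 28.0% and 39.2%, with 4806 and 3402 UMIs in the median cell, and the Cxcl1 shares 5.58% and 11.1%. In thinned epithelium-like cells, with unthinned medians of 3987 and 3006 UMIs, Cxcl1 was found in 0.646% and 1.76% of cells. Among thinned deletion mesenchyme-like cells with a Cxcl1 UMI, 55.4% also held Csrnp1 and 36.1% Cebpd, against 26.4% and 16.3% of those without one. In the control these shares were 37.9% and 28.6% with Cxcl1, and 13.3% and 9.3% without it. They pool subtypes that differ in all of these genes. Shares within a subtype were not computed, and the part of the subtype mix was not tested.

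Cxcl1 was uneven between cells. The top 1% of mesenchyme-like cells held 53.1% of its UMIs in control cells and 39.9% in the deletion library. For Csrnp1, found in more cells, these shares were 13.5% and 10.0%. For Cxcl2 and Ccl2, found in fewer cells, they were 74.1% and 58.1%, and 100% and 76.2%. A single deletion cell held 87 of the 2805 Cxcl1 UMIs.

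**Figure D3:**
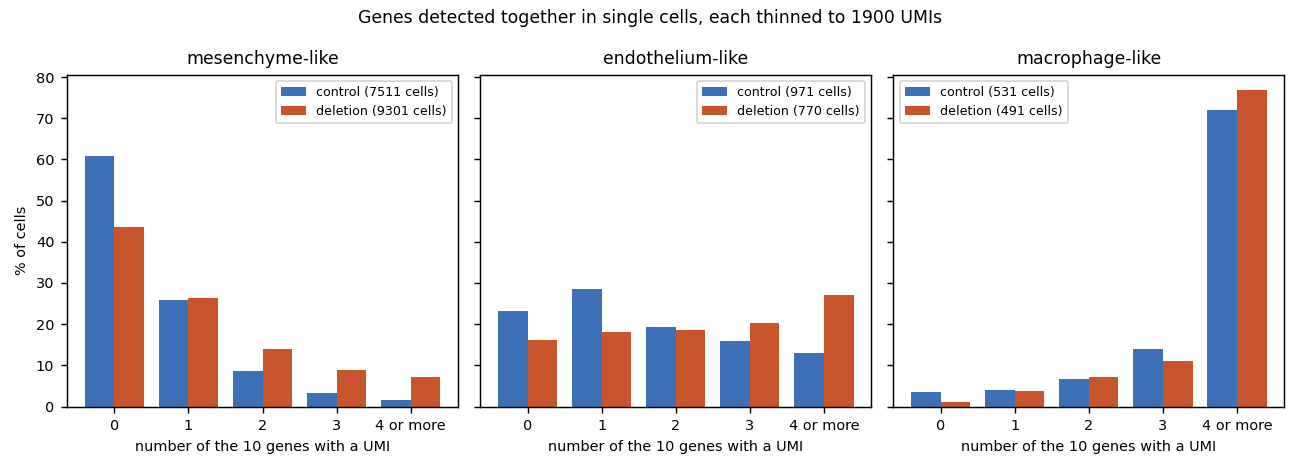
Share of cells (%) by the number of the 10 genes with at least 1 UMI, in mesenchyme-like, endothelium-like and macrophage-like cells thinned to 1900 UMIs, for control (blue) and deletion (orange). The bars at 4 or more stand at 1.48% and 7.20% in mesenchyme-like, 13.1% and 27.0% in endothelium-like and 71.9% and 76.8% in macrophage-like cells.

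In endothelium-like cells as a whole most members stood higher in the deletion library, by less than in mesenchyme. In Xist cells alone only Cebpb and Trib1 had count ratio intervals above 1, as given with those cells. Over the whole class 9 of the 10 genes had a count ratio interval above 1, with Ccl7 (19 and 11 UMIs) the exception. The share of all genes with such an interval was not counted, so these counts have no background. Only Cxcl2 passed the 2-fold rule, with a log2 ratio of 1.06 (count ratio 1.84 to 2.78), where 0.212% of 3307 genes passed it in that direction and 0.0605% in the other. The next largest log2 ratios were 0.73 for Cebpb, 0.61 for Errfi1, 0.46 for Trib1 and 0.41 for Csrnp1. Cxcl1 had 0.25 over the class, with -0.37 in Xist cells and 0.58 in Y-linked cells. The median over the 10 genes was 0.37, and over 10062 measured genes it was -0.079. The interferon-induced chemokine gene Cxcl10, which is no member, also passed the rule there, at 116 and 327 CPM. Of all measured genes in these cells, 35.9% stood higher in the deletion library. The 9 macrophage markers summed to 81.6 and 69.9 CPM in these cells, with 4 of 9 higher, and the 10 neutrophil markers to 7.23 and 11.1 CPM, with Elane, Mpo and Ly6g at 0. The 7 erythroid markers summed to 146 and 234 CPM, with 5 of 7 higher and Hba-a1 and Hba-a2 past the rule, and the 8 osteoclast markers to 20.2 and 45.8 CPM, with 6 of 8 higher and Ocstamp at 0. Their part in the ratios was not tested.

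Endothelial sub-clusters differed in direction for Cxcl1. In sub-cluster 2 it stood at 339 CPM in control cells and 169 CPM in the deletion library, and in sub-cluster 8 at 116 and 323 CPM. In sub-cluster 3, the largest in the deletion library, it stood at 644 and 653 CPM. Cxcl2 there stood at 41.1 and 86.0 CPM, and Cebpb at 170.0 and 286 CPM.

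In mural-like cells 0 of the 10 passed the 2-fold rule, where 0.473% of 3593 genes passed it in that direction and 0.0557% in the other. Cebpb had the largest log2 ratio, 0.92 (count ratio 1.62 to 2.27), followed by Trib1 at 0.74, Csrnp1 at 0.72, Cebpd at 0.61 and Cxcl1 at 0.52, all with intervals above 1. In Y-linked mural cells (95 and 48) the log2 ratio of Trib1 was -0.25, that of Cebpd -0.45 and that of Cxcl1 -0.051, against 2.03, 0.55 and 0.51 in Xist mural cells (59 and 119). Cebpb (0.75 and 1.10) and Csrnp1 (0.40 and 0.86) were above 0 in both, but the Csrnp1 interval in Y-linked cells, 0.926 to 1.87, includes 1. Ccl2 was lower by the rule in Y-linked cells, at -1.04 (126 and 23 UMIs), and Cxcl2 in Xist cells, at -1.49 (17 and 7 UMIs). Over all mural-like cells Errfi1, at -0.048 (0.799 to 1.17), and Ccl2, at -0.045 (0.822 to 1.14), had intervals that include 1. Haemoglobin and other erythroid markers summed to 15.8 and 1214 CPM in these cells, and their part in the ratios was not tested.

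In macrophage-like cells 0 of the 10 passed the rule, where 0.0582% of 3434 genes did in that direction and 0.116% in the other. Cxcl1 had the largest log2 ratio, 0.73 (count ratio 1.57 to 1.77), then Cebpb at 0.51 (1.36 to 1.49). Ccl2, Ccl7 and Cxcl2, the abundant chemokines of these cells, had log2 ratios of 0.10, 0.22 and 0.24, with intervals just above 1. Cebpd, at -0.21 (0.703 to 1.03), was the only one below 0. Macrophage sub-clusters went both ways for Ccl2, with 3298 and 2522 CPM in sub-cluster 0 and 2353 and 2918 CPM in sub-cluster 3.

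Neutrophil-like cells showed no common direction, with 0 of the 10 higher by the rule, where 6.96% of genes were, and 1 lower, Ccl2, where 2.91% of genes were. The shares of genes past the rule were large in this class of few and shallow cells. Cebpb (1000.4 and 1017 CPM), Trib1 (882 and 757 CPM), Csrnp1 (493 and 454 CPM) and Klf10 (180 and 185 CPM) had count ratio intervals that include 1. Cxcl2, at 5056 and 4433 CPM, had an interval of 0.810 to 0.949. Ccl2 stood at 39 UMIs in control cells and 6 in the deletion library, and 22 of the 39 were in a single cell. In osteoclast-like cells 0 of the 10 passed the rule, where 0.933% of genes did in each direction, and in glia-like cells 0 of the 10, where 5.32% and 6.2% did. Of the 25 Cxcl1 UMIs in deletion osteoclast-like cells 20 were in 1 cell.

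In epithelium-like cells, the tissue where K14cre is active, 2 of the 10 reached the minimum level and 0 passed the rule, where 0.141% of 3551 genes passed it in that direction and 0.0845% in the other. Csrnp1 had the largest log2 ratio, 0.73 (15.3 and 28.7 CPM, count ratio 1.52 to 2.33). Cxcl1 (48 and 65 UMIs) and Cxcl2 (35 and 44 UMIs) had log2 ratios of 0.59 and 0.45, with intervals above 1. Errfi1, Cebpb and Klf10 had log2 ratios of 0.35, 0.28 and 0.26, with intervals above 1, and those of Cebpd, Trib1, Ccl2 and Ccl7 included 1. In Y-linked cells alone the intervals of Csrnp1, Cxcl1, Errfi1 and Cebpb included 1, and in Xist cells alone those of Cxcl2, Errfi1 and Klf10. Over the whole class the median of the 10 was 0.27, against -0.045 over 10693 measured genes.

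**Figure D4:**
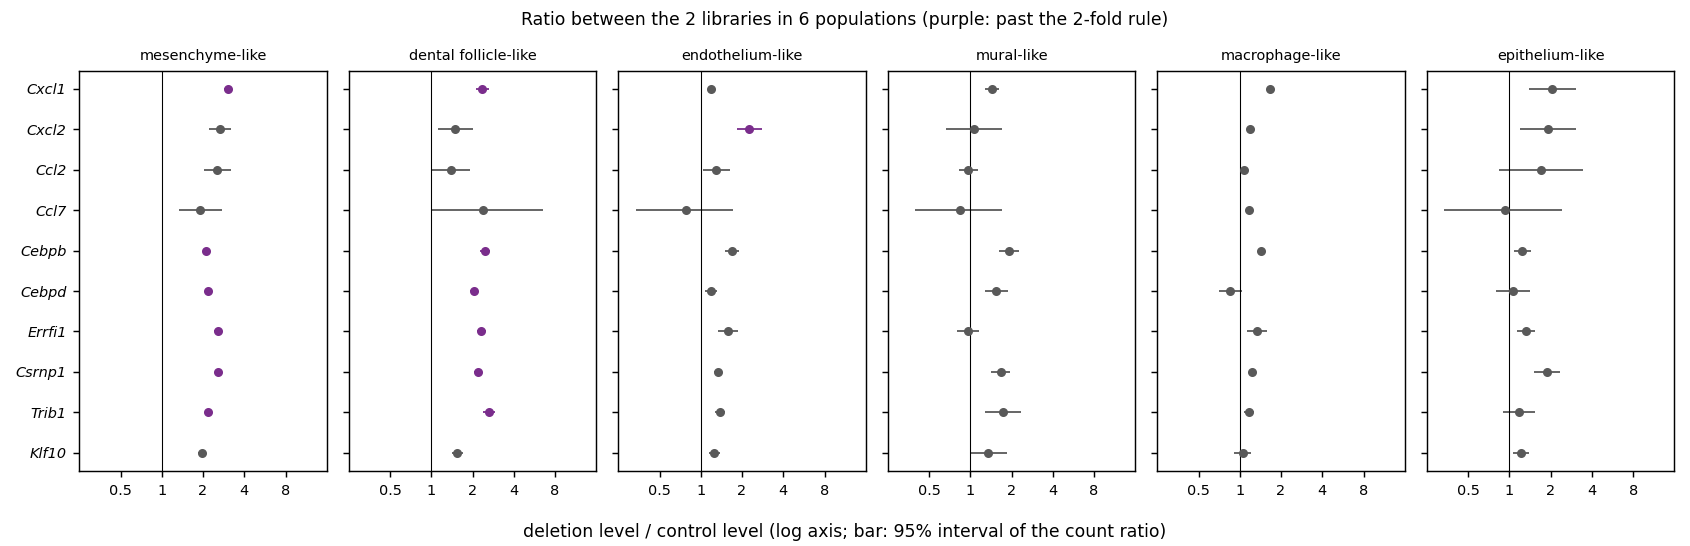
Deletion level over control level of each gene (logarithmic axis, bar: 95% interval of the count ratio) in 6 populations, purple where the 2-fold rule was passed and with a line at 1. Mesenchyme-like and dental follicle-like cells each have 6 purple points, endothelium-like cells have 1, Cxcl2, and the other 3 populations have none.

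Cells with Xist UMIs and no Y-linked UMI (2760 control and 5318 deletion cells) and cells with Y-linked UMIs and no Xist (5127 and 3667) come from different pups of each library, so each pair gives a separate comparison of the same dissociations. In mesenchyme-like cells Csrnp1 stood at 77.1 and 201 CPM in Xist cells and at 94.9 and 253 CPM in Y-linked cells, with log2 ratios of 1.33 and 1.37. Errfi1 gave 1.24 and 1.35, Cebpd 1.26 and 1.13, Trib1 1.13 and 1.07, Cebpb 0.93 and 1.08, and Klf10 0.82 and 0.97. Within a library, Xist and Y-linked cells differed in these 6 genes by log2 values between -0.33 and 0.084. Since members were chosen for their level in this class, these values describe the strata and support nothing. Cxcl1 was less even. It stood at 13.9 and 86.8 CPM in Xist cells, a log2 ratio of 2.28, and at 23.7 and 53.1 CPM in Y-linked cells, a log2 ratio of 1.02. Xist cells were the lower for Cxcl1 in the control (-0.60) and the higher in the deletion library (0.66).

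In dental follicle-like cells Csrnp1 stood at 186 and 485 CPM in Xist cells and at 253 and 518 CPM in Y-linked cells. Trib1 gave log2 ratios of 1.86 and 1.30, Errfi1 1.20 and 1.22, Cebpb 0.96 and 1.47, and Cxcl1 1.57 and 0.88. Endothelium-like cells were less even between Xist and Y-linked cells. Cxcl2 stood at 49.5 and 48.0 CPM in Xist cells, a log2 ratio of -0.040, and at 24.9 and 85.3 CPM in Y-linked cells, a log2 ratio of 1.60. The ratio that passed the rule in endothelium was thus not seen in Xist cells. Cebpb gave 0.65 and 0.75 there, and Trib1 0.34 and 0.65. Of the members only Cebpb and Trib1 had a count ratio interval above 1 in Xist cells, whereas in Y-linked cells all but Ccl7 had one. The share of all genes with such an interval was not counted in either. Ccl2 gave -0.47 and 0.61, Ccl7 -0.054 and -0.48, and Cebpd 0.0055 and 0.46. Klf10 gave 0.040 and 0.56, Csrnp1 0.15 and 0.47, and Errfi1 0.30 and 0.62.

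**Figure D5:**
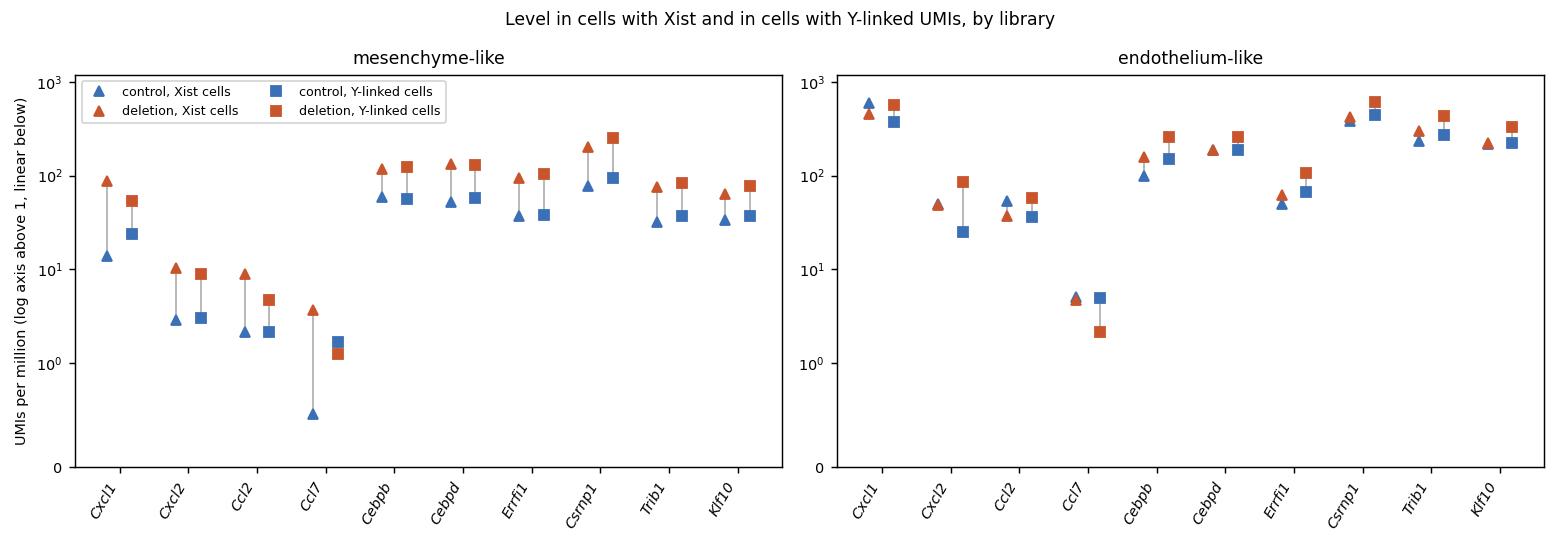
Level of each gene (CPM, logarithmic above 1 and linear below) in Xist cells (triangles) and Y-linked cells (squares), control blue and deletion orange, in mesenchyme-like and endothelium-like cells. In mesenchyme-like cells the orange symbols of Csrnp1, Errfi1, Cebpb, Cebpd, Trib1 and Klf10 lie above the blue ones in both kinds of cell, whereas for Cxcl1 and Cxcl2 in endothelium-like cells the triangles do not follow the squares.

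Other genes of the same pathways mostly stood higher in the deletion library too, less clearly so for CC chemokines and chemokine receptors. None of these other genes passed the rule in mesenchyme-like cells. Of 32 measured immediate early and dissociation genes, which tissue digestion can switch on, 31 had log2 ratios above 0 in mesenchyme-like cells with a median of 0.52, and 0 passed the rule. Over all measured genes 66.0% lay above 0, with a median of 0.087. The largest in level were Fos (2121 and 2717 CPM), Egr1 (1553 and 1969 CPM) and Fosb (1043 and 1753 CPM). In endothelium-like cells 32 of 33 of these genes lay above 0 (median 0.36, where 35.9% of all genes did), in mural-like cells 32 of 32 (0.55, 50.2%), in epithelium-like cells 30 of 32 (0.43, 39.0%) and in macrophage-like cells 20 of 33 (0.13, 51.7%). Its largest log2 ratio in mesenchyme-like cells was that of the nuclear receptor gene Nr4a3, 1.08, at 13.9 and 35.1 CPM. The part of this list in the members' ratios was not tested.

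Of 17 measured inflammatory cytokine and NF-kB feedback genes, 15 lay above 0 in mesenchyme-like cells and 0 passed the rule (median 0.56). Zfp36, which destabilises cytokine messages, stood at 513 and 810 CPM, the NF-kB inhibitor gene Nfkbia at 201 and 305 CPM and Tnfaip6, a secreted hyaluronan-binding protein, at 114 and 175 CPM. In endothelium-like cells 14 of 20 lay above 0 (median 0.31), and in macrophage-like cells 21 of 23 (0.18). Of 14 ERK feedback genes other than Errfi1, 12 lay above 0 in mesenchyme-like cells (median 0.28), among them Ier3 at 256 and 422 CPM and Dusp1, a MAP kinase phosphatase, at 254 and 331 CPM. Of 12 Krüppel-like factors other than Klf10, 11 lay above 0 (median 0.36). The exception, Klf4, was the highest in level, at 1069 and 951 CPM, and Klf6 stood at 300 and 547 CPM.

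Family members and receptors were mostly weak. Of 4 measured CXC chemokines other than the members, 4 lay above 0 in mesenchyme-like cells, with Cxcl12, which retains stem and immune cells, at 61.9 and 92.1 CPM and Cxcl14 at 60.1 and 71.6 CPM. Cxcl10, below the minimum level at 4.71 and 27.5 CPM, had a log2 ratio of 1.74, larger than that of any member. Of 6 C/EBP relatives and partners other than the members, 6 lay above 0 (median 0.29), with Atf4 at 169 and 183 CPM and Atf3, which is also on the immediate early list, at 50.5 and 73.5 CPM. Trib2 stood at 63.6 and 71.4 CPM, Csrnp2 at 11.96 and 16.9 CPM, and Csrnp3 at 6.09 and 7.99 CPM. Among 5 measured chemokine receptors 3 lay above 0 (median 0.31), where 66.0% of all genes did. Of 3 measured CC, C and CX3C chemokines other than the members, 2 did (median 0.080). The scavenger receptor gene Ackr4 stood at 44.6 and 28.7 CPM and Ackr3 at 19.5 and 25.6 CPM. The EGF receptor gene Egfr, whose product Errfi1 restrains, stood at 20.8 and 32.8 CPM and its ligand Hbegf at 45.1 and 55.7 CPM. In endothelium-like cells 2 of 6 chemokine receptors and 1 of 4 such CC, C and CX3C chemokines lay above 0, where 35.9% of all genes did. In macrophage-like cells 6 of 7 and 2 of 8 did (51.7%), in mural-like cells 1 of 5 and 3 of 4 (50.2%). In epithelium-like cells 0 of 1 and 1 of 2 did (39.0%).

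Across 12 populations (8 classes and 4 mesenchymal subtypes) in both libraries, which gives 24 points that share libraries and in part cells, the genes most like each member were ranked by Pearson's r of log2(CPM + 5) among 7629 genes. For Cxcl1 they were Rhob (r = 0.85), Cxcl10 (0.84) and Sash1 (0.83), and for Cxcl2 Cd14, Ccl3 and Arrb2 (0.96 each). For Ccl2 they were Eps8 (0.89), Slc9a9 and Irf8 (0.87 each), and for Ccl7 Gm14221 (0.97), Pld4 and Ms4a6b (0.95 each). Cebpb was most like Klf6 (0.94), Mcl1 (0.93) and Cdc42 (0.92), and Cebpd most like Lmo4 (0.91), Lats2 (0.90) and Olfml2b (0.84). Csrnp1 was most like Junb, Coq10b and Maff (0.93 each), and Trib1 most like Nfkbiz, Ccnl1 and Sde2 (0.92 each). Klf10 was most like Pde4b, Tmed5 and Slc2a1 (0.85 each), and Errfi1 most like Septin8, Gab1 (0.86 each) and Myl9 (0.84). Between members the highest r were 0.87 for Cxcl2 with Cebpb, 0.85 for Ccl2 with Ccl7 and 0.84 for Trib1 with both Klf10 and Csrnp1, while Cxcl1 with Cxcl2 had 0.21.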

How the data were processed

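The deposited files hold whole-number counts of UMIs per gene and barcode, not normalized by the authors. STARsolo was run against mm10, per the submitters' processing notes. No source used here gives its version or strand setting. Barcodes with at least 500 genes and at most 20% mitochondrial UMIs were kept, and Scrublet calls (176 control and 243 deletion barcodes) were removed. Both libraries were clustered together in scanpy 1.11.5 (2000 variable genes without the 10 members, 30 components, 15 neighbours, Leiden resolution 1, sub-clusters at 0.6).

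Clusters were named from marker lists, with a scoring rule set after seeing the data. The members and the gene lists were chosen with earlier results of these data known. UMIs were summed per class and library. Levels carry exact Poisson intervals, ratios conditional binomial intervals and shares Clopper-Pearson intervals, all at 95%. Adding 5 CPM understates the ratios of weak genes. The 2-fold rule was tested on simulated data. Named genes are the members, the genes of each list past the rule in mesenchyme-like or endothelium-like cells, the 3 of each list highest in mesenchyme-like cells and the 3 most alike to each member. Atf3, Nr4a3, Cxcl10 in mesenchyme, the C1q genes and genes that overlap a member were added after their values were seen.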

Additional observations from a re-analysis of the deposited data

Results flagged for a closer look

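Cxcl1 in endothelium-like cells went opposite ways in Xist and in Y-linked cells, which differ in both sex and pup. Its log2 ratio was -0.37 in Xist cells (595 and 460 CPM, count ratio 0.695 to 0.860) and 0.58 in Y-linked cells (375 and 562 CPM, 1.33 to 1.68). The difference between the 2 kinds of cell was not tested, since each is 1 sample per library.

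Some members were lower in the deletion library in a leukocyte class while mesenchyme-like cells were higher, each with a count interval on its own side of 1, and these differences were not tested. In neutrophil-like cells Cxcl2 had a log2 ratio of -0.19 and Ccl2 one of -2.34, the latter with 22 of its 39 control UMIs in 1 cell. In osteoclast-like cells Cebpb had a log2 ratio of -0.34, from 42 control and 106 deletion cells.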

How the results depend on the processing

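No paired analysis was possible because each group is 1 library. Of 610 log2 ratios of the members in 5 classes under alternative settings, 580 kept the sign of the reported value (138 of 140 in mesenchyme-like cells), but 116 (58 of those 140) moved outside its counting interval. Cxcl1 in mesenchyme-like cells ranged from 0.85 to 2.28. Cxcl2 in endothelium-like cells, which had passed the rule, reversed to -0.040 with Xist cells only, where 0 members passed it. Cxcl2 in mural-like cells, which had not (0.082), was lower by the rule with Xist cells only, at -1.49 from 17 and 7 UMIs. Counts moved more. In mesenchyme-like cells 6 members, 13 genes higher and 13 lower became 1, 2 and 2 with doublets kept, 3, 8 and 26 with TMM scaling, 0, 0 and 0 with equal sub-cluster weights, and 3, 7 and 2 with the members used in clustering. Doublets kept also renamed clusters, so that 3858 of 7702 control and 6938 of 10004 deletion cells stayed in the class, and with the members used in clustering 6478 and 9449 did. TMM moved the scale of the class by -0.13 on the log2 scale. A pseudocount of 1 CPM gave 21 higher, no minimum level 22 higher and 23 lower, Xist cells only 36 higher, and Y-linked cells only 62 higher and 38 lower. Leaving out odontoblast-like cells gave 3 members and 3 lower, and adding clusters 10 and 21, chosen after the data were seen, 3 members and 8 lower. In endothelium-like cells 7 higher and 2 lower became 12 and 7 with no minimum level, 14 and 4 with thinned cells, 3 and 9 with equal weights, and 22 and 16 with Y-linked cells only. There, 5 were lower under a stricter cell filter, 5 with Xist cells only and 4 with cells holding leukocyte UMIs left out. The causes were not tested. Depth limits Ccl7, with 51 and 87 UMIs in mesenchyme-like cells.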

Other observations

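Unnamed clusters, which enter no class, held members too. In cluster 26, led by Cpa3, Cma1 and Ly6c2 (105 control and 117 deletion cells), Cxcl2 stood at 2522 and 3871 CPM, Cebpb at 1381 and 1516 CPM and Csrnp1 at 899 and 889 CPM. In cluster 21, led by Mmp13, Pdzrn4 and Sfrp4 (213 and 379 cells), Cxcl1 stood at 34.5 and 75.1 CPM and passed the 2-fold rule, while Cebpb stood at 163 and 246 CPM and Ccl2 at 18.7 and 30.6 CPM. In cluster 10, led by Vdr, Slc26a7 and Fabp7 (565 and 616 cells), Cebpd stood at 151 and 187 CPM and Cxcl1 at 11.99 and 20.7 CPM. In cluster 24, led by Ighm, Igkc and Cd79a (23 and 36 cells), Csrnp1 had 23 and 28 UMIs, and Cebpb, Cebpd and Ccl7 had 0 UMIs in both libraries.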
